A study of Mus musculus with 20 samples.

Results

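The genes described here are 32 mouse genes for cell adhesion molecules of blood cells, taken from a fixed list of names and matched by symbol to the 53379 gene identifiers of the deposited gene tables. They comprise 9 integrin alpha subunits, 5 integrin beta subunits, 11 other adhesion receptors and ligands, and 7 tetraspanins. All 32 were found and all 32 passed the filter on low counts, which left 15835 genes for testing.

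RNA was sequenced from cultures of lineage-negative (Lin-) haematopoietic progenitors of mouse fetal liver, in 5 groups of 4 libraries. Wild-type cells with a control retroviral vector formed the wild-type control. Cells of the -77 enhancer knockout (-77KO), which lack a distal enhancer of Gata2 and are called enhancer-null here, carried the control vector (enhancer-null control), pMSCV-Gata2 (GATA2 group), or an MSCV vector coding for GATA2 with the change R307W or T354M. GATA2 is a DNA-binding protein that early blood cells need, and both changes lie in its zinc finger region. The strain C57BL/6J, the age E14.5 and the medium (IMDM with serum, IL3-CM and SCF-CM) are given for the wild-type control, the enhancer-null control and the GATA2 group, and the records of the R307W and T354M groups leave them out. The 3-day culture after infection is stated for every group. Each vector adds GATA2 from a retroviral promoter on top of what the enhancer-null locus still makes. The labels do not say whether libraries of a group came from separate embryos or cultures, so p-values measure the spread between these libraries, which may be technical in part.

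Integrins are dimers of an alpha and a beta subunit that bind matrix proteins or counter-receptors on other cells once the cell has activated them from inside. Immunoglobulin-like receptors such as the ICAMs and the selectin ligand PSGL-1 (Selplg) are their partners in the arrest of white blood cells on endothelium and in contacts between blood cells. Tetraspanins are small membrane proteins that cross the membrane repeatedly and gather integrins and other receptors into patches; Cd63 also sits in granule and lysosome membranes. In fetal liver, adhesion through alpha 4, alpha 5 and beta 1 integrins holds progenitors to stroma and macrophages, while the other subunits mark particular lineages, such as beta 3 on megakaryocytes and beta 7 on mast cells, eosinophils and lymphocytes.

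The libraries held between 22330475 and 33245876 expected counts. Levels below are CPM, expected counts scaled to a common library size with edgeR's TMM factors, given as mean ± SD over the 4 libraries of a group. A gene is called where the adjusted p of edgeR's quasi-likelihood test, with Benjamini-Hochberg adjustment over all 15835 genes, is under 0.05, and differences are on the log2 scale with their standard error (SE). Gata2 itself stood at 44.3 ± 9.8 CPM in the wild-type control, 5.79 ± 1.3 in the enhancer-null control, 80.7 ± 37.3 with GATA2, 54.8 ± 23.7 with R307W and 52 ± 19.7 with T354M, and the counts do not separate vector from endogenous transcripts. Replicate 4 stood apart from the other libraries in all 3 vector groups, on a second principal component that held 21.5% of the variance, and had the highest Gata2 count in each of those groups. Among the 32 genes it was the highest library of all 3 vector groups for 9 and the lowest of all 3 for 8. The labelled cell type was checked by Kit, Cd34, Myb, Ptprc and Spi1, with none at 0. Their summed level was 666 to 872 CPM in the wild-type control and 1041 to 1471 CPM in the other groups. In the enhancer-null control 3 of the 5 were called higher than in the wild-type control and 2 lower, Kit among the lower. Over all genes 20.1% were called higher and 23.2% lower. The sum therefore does not show how each gene moved. Hepatocyte markers summed to 177 to 3646 CPM, with none of 9 called in any comparison, and the other marker lists are given after the genes of each role. In such bulk samples, fewer cells of a type and less RNA per cell cannot be told apart.

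The sequences shown are promoter windows of 4 genes on which the comparisons below turn: the neighbours Icam1 and Icam4, which moved in opposite directions on loss of the enhancer, and Itga2 and Itgb7, which differed between GATA2 and its variants. Each window is the stretch of 250 bases before the RefSeq start (build GRCm38.p6), written 5′ to 3′ on the strand of the gene. For Icam4 only the 30 bases around a match are given, since the window overlaps annotated exons. Capitals mark a GATA motif on either strand (the letters AGATAA or AGATAG and, with T in first place, TGATAA or TGATAG) or a STAT-type GAS motif (TTCNNNGAA).
Icam1, chr9:21015690-21015939, plus strand: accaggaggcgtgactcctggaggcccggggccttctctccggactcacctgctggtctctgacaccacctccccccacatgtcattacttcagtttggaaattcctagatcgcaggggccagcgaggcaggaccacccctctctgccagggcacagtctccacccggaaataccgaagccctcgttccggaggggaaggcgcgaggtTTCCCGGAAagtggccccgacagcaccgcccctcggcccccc
Icam4, chr9:21029377-21029406, plus strand: cagggtgccttcTTATCTcctgcggccagc
Itga2, chr13:114932101-114932350, minus strand: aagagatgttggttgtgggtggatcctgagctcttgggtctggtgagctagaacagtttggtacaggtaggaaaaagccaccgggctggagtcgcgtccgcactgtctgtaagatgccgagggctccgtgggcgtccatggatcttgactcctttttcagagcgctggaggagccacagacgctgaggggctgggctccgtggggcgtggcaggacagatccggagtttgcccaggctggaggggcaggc
Itgb7, chr15:102231936-102232185, minus strand: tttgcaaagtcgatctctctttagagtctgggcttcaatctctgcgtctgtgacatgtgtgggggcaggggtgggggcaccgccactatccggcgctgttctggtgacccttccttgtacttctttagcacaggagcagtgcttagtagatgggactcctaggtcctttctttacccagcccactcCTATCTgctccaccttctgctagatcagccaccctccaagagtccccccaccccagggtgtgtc

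Icam1 had a GAS match, TTCCCGGAA, 42 to 34 bases before its RefSeq start, and no GATA match. That start was not found in the GENCODE M21 transcripts of Icam1, which GENCODE begins further downstream, at chr9:21015985. Icam4 had a GATA match, TTATCT, 43 to 38 bases before its RefSeq start. That match lies inside the Icam4 gene as GENCODE M21 annotates it, from chr9:21029373. All 250 bases of the Icam4 window lie in exons of Icam4 or of the antisense gene Gm47079. Itgb7 had CTATCT 64 to 59 bases before its own RefSeq start. The Itga2 window held neither set of letters. RefSeq windows were matched for 23 of the 32 genes, of which 5 (21.7%) held a GATA match (Cd37, Cd44, Cd53, Icam4 and Itgb7), against 26.5% of all 32851 windows. A GAS match was in 1 of the 23 (4.35%), against 7.02% of all windows. The shares of the 23 count a gene once if any of its windows matched, whereas the shares of all are per window. These are matches of letters in a window and say nothing of binding.

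Levels between genes were compared per transcript length, as TPM (transcript abundance corrected for gene length). In the wild-type control the most abundant of the 32 were Cd47, the signal that restrains uptake by macrophages, at 182 TPM, Cd53, a pan-leukocyte tetraspanin, at 117 TPM, and the integrin subunits Itga4 at 69.3 and Itgb1 at 68.8 TPM. Itgae was lowest at 0.1 TPM, followed by Jaml at 0.485 and Itga9 at 0.983 TPM. In the enhancer-null control Cd53 at 183 TPM stood above Cd47 at 134 TPM. The lowest genes there were Itga9 at 0.425, Itga2 at 0.468 and Icam4 at 0.485 TPM. Low genes rest on few reads: Itgae had 39 expected counts over the 4 wild-type control libraries and Icam4 had 46 over the 4 enhancer-null controls, so their folds are less precise than those of abundant genes.

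**Figure D1:**
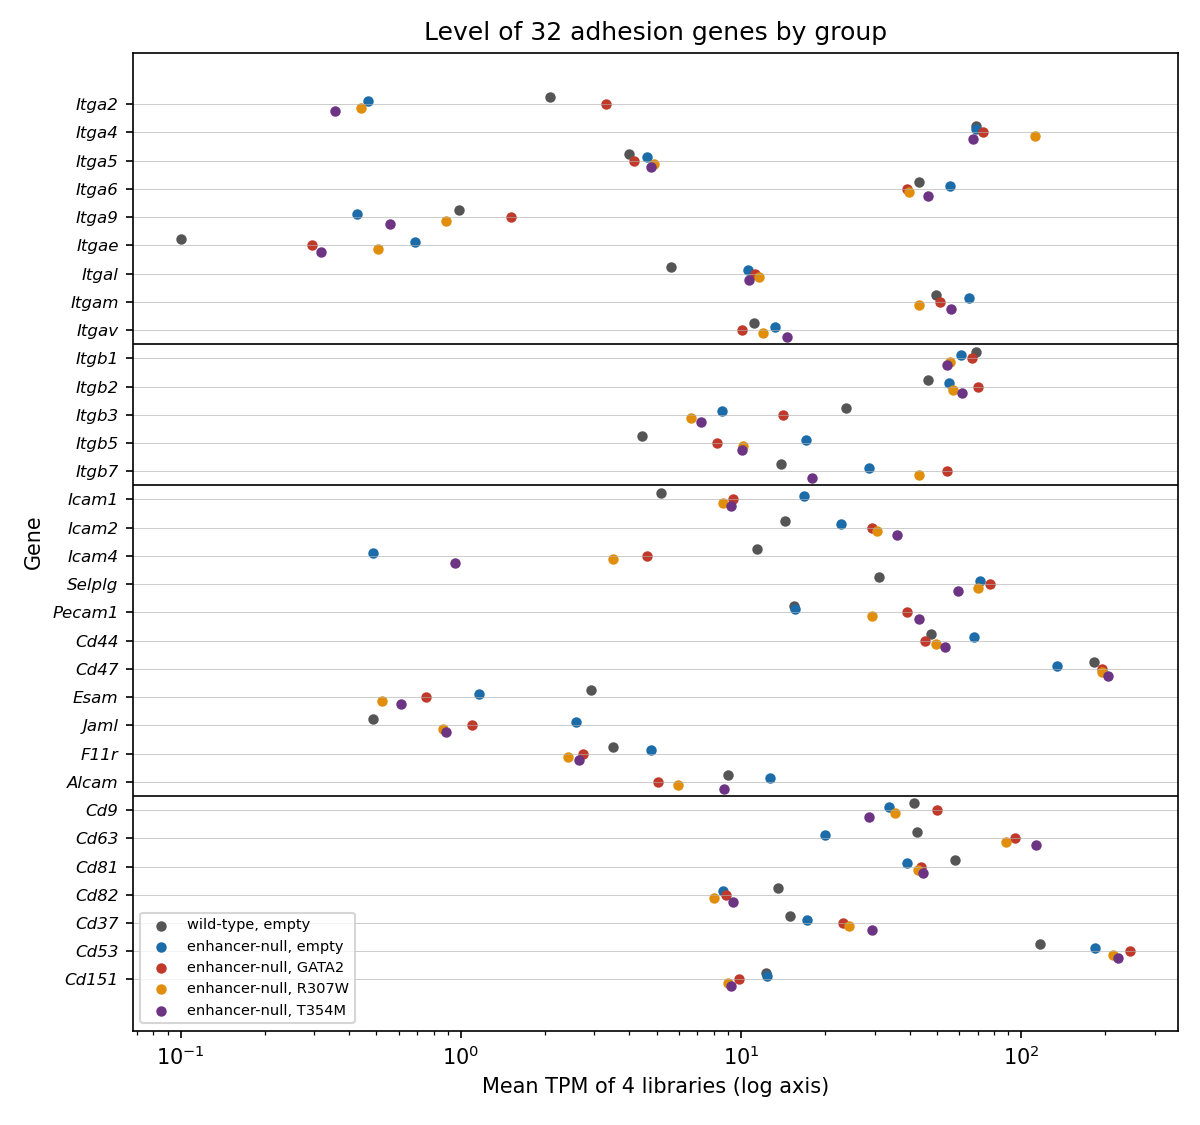
Mean TPM (log axis) of each of the 32 genes in the 5 groups, with horizontal lines between integrin alpha subunits, integrin beta subunits, other adhesion molecules and tetraspanins. Icam4 spans from 0.485 TPM in the enhancer-null control to 11.4 TPM in the wild-type control, while the points of Itga5 lie between 4 and 4.91 TPM in all groups.

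Loss of the enhancer changed 18 of the 32 genes (56.2%), where 43.3% of all genes tested were called. Of these, 9 were higher (Itgae, Itgal, Itgb5, Itgb7, Icam1, Icam2, Selplg, Jaml and Cd53) and 9 lower (Itga2, Itgb1, Itgb3, Icam4, Cd47, Esam, Cd63, Cd81 and Cd82) in the enhancer-null control than in the wild-type control. Over all genes 20.1% were called higher and 23.2% lower, and with log2(TPM + 1) in place of counts the split over all genes turned to 3494 higher and 2472 lower, from 3181 and 3678. Changes of at least 2-fold were called for 10 of the 32 genes, against 18.8% of all genes, and the 2 groups' libraries did not overlap for 16 of the 32, against 38.8% of all genes. The median log2 difference of the 32 was 0.12, and that of all genes was -0.05. By role, 3 of 9 alpha subunits, 4 of 5 beta subunits, 7 of 11 other adhesion molecules and 4 of 7 tetraspanins were called.

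The GATA2 vector, set against the enhancer-null control, also changed 18 of the 32, where 19.2% of all genes were called. Itga2, Itga9, Itgb3, Itgb7, Icam2, Icam4, Pecam1, Cd47, Cd63 and Cd53 were higher (10 of 32, against 11% of all genes), and Itga6, Itgae, Itgb5, Icam1, Cd44, Jaml, Alcam and Cd151 were lower (8 of 32, against 8.23%). Of the 32 genes 9 were called with at least 2-fold, against 8.46% of all genes, and libraries did not overlap for 18, against 28.3%. R307W changed 15 of the 32, where 17.5% of all genes were called, 10% higher and 7.48% lower: 7 rose (Itga4, Icam2, Icam4, Pecam1, Cd47, Cd63 and Cd37) and 8 fell (Itga6, Itgam, Itgb5, Icam1, Esam, Jaml, Alcam and Cd151). T354M changed 10 of the 32, where 17.4% of all genes were called, 9.26% higher and 8.11% lower: Icam2, Pecam1, Cd47, Cd63 and Cd37 rose, and Itgb5, Icam1, Esam, Jaml and Cd151 fell. These 3 comparisons share the enhancer-null control libraries with each other and with the loss of the enhancer, so their lists are not independent of one another. Their median log2 differences over the 32 genes were 0.12 with GATA2, 0.00 with R307W and -0.24 with T354M, beside 0.00, 0.02 and 0.02 over all genes.

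**Figure D2:**
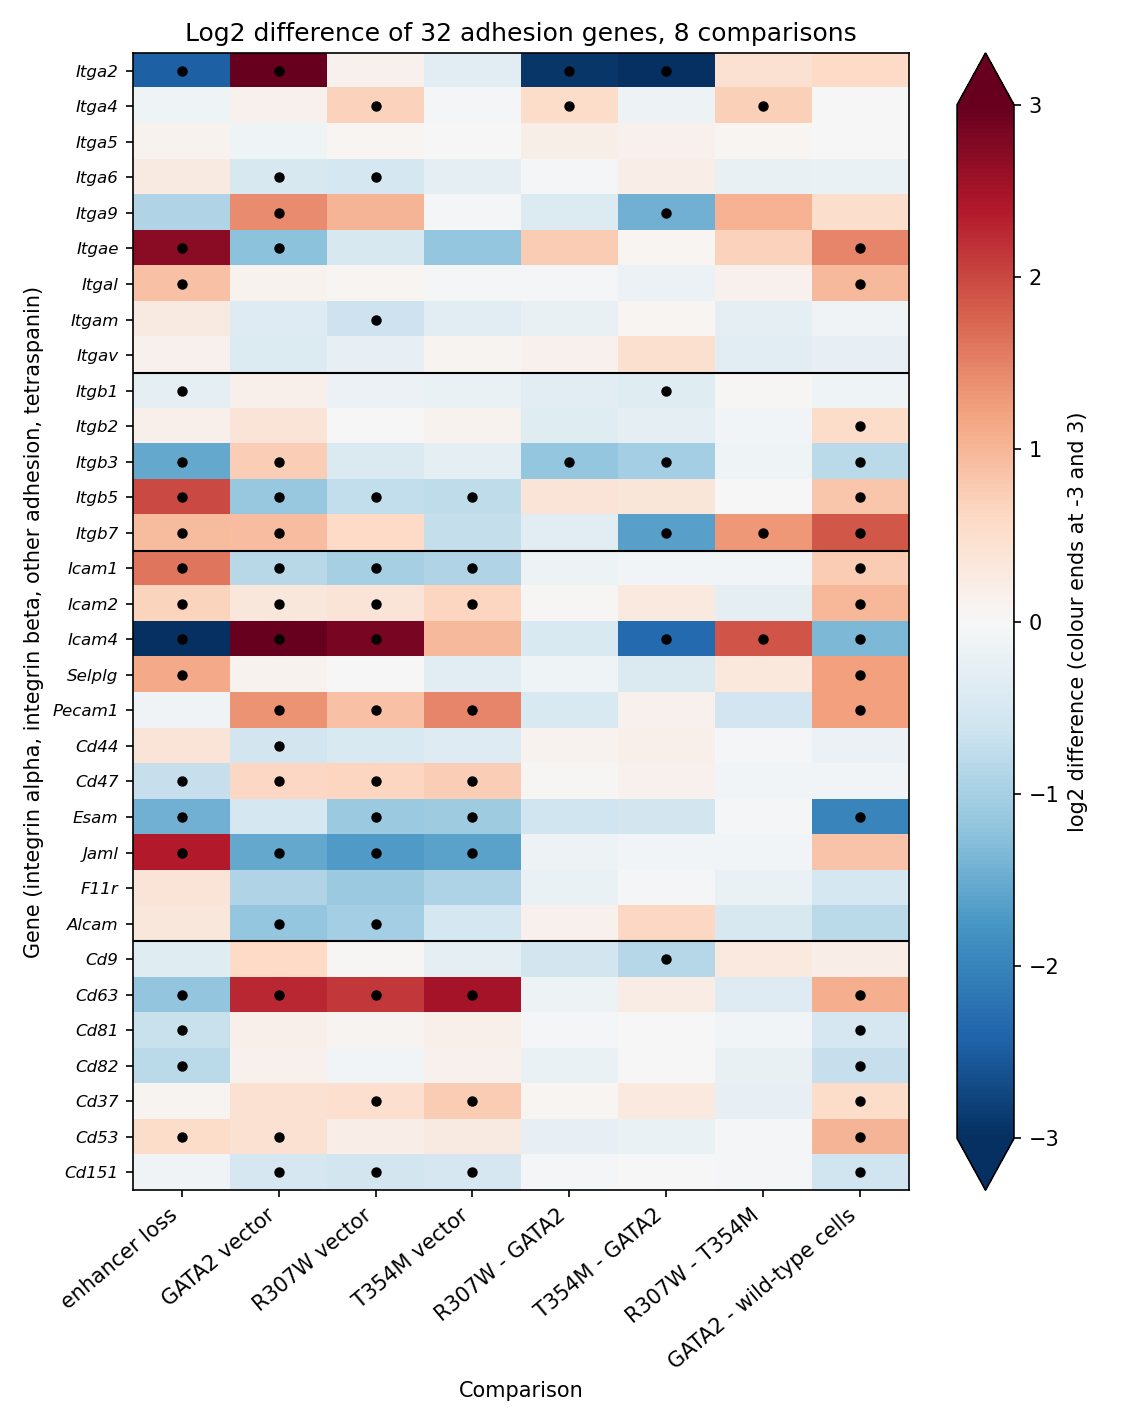
Log2 difference of each gene (rows, ordered by role) in the 8 comparisons (columns). Dots mark genes called at an adjusted p under 0.05 and the colour scale ends at -3 and 3, so that the enhancer-loss value of Icam4 (-4.65) lies beyond it; the 3 comparisons between vectors hold the fewest dots (3, 7 and 3).

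How far these counts rest on single libraries differed by comparison. After loss of the enhancer, 17 of the 18 calls held under each alternative run, and the exception was Itgb1 (-0.27, SE 0.08, adjusted p = 0.0127). Its call was lost without wild-type control replicate 2 (adjusted p = 0.0761), with no filter on low counts (0.102) and with only the 8 libraries compared (0.067). It was lost also on log2(TPM + 1) and log2(TPM + 0.1) values (0.286 and 0.287). For the GATA2 vector 6 of 18 calls held under each alternative: Itga2, Icam4, Pecam1, Cd47, Cd63 and Jaml. Without replicate 4 of the GATA2 group 7 of the 32 genes were called, and without replicate 1 or replicate 2 of that group or replicate 3 of the enhancer-null control the counts were 11, 11 and 10. With R307W 7 of 15 calls held throughout (Itga4, Icam1, Icam4, Pecam1, Cd47, Cd63 and Jaml), and 7 genes were called without replicate 4 of the R307W group and 8 without replicate 4 of the enhancer-null control. With T354M 7 of 10 held throughout, all but Itgb5, Esam and Cd151. Leaving out replicate 4 of every group left 12 genes called with GATA2, 8 with R307W and 8 with T354M. On log2(TPM + 0.1) values the calls among the 32 were 9 higher and 4 lower with GATA2, 7 and 4 with R307W, and 5 and 3 with T354M.

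Among the integrin alpha subunits, Itga2 changed most between vectors. It encodes the alpha 2 subunit, which with beta 1 forms a collagen receptor of platelets and other cells. Its level was 14.9, 17.4, 13.8 and 15.2 CPM in the wild-type control libraries and 2.48, 2.22, 3.67 and 2.77 CPM in the enhancer-null controls. The GATA2 libraries reached 26.2, 18, 7.83 and 40.9 CPM, the R307W libraries 3.57, 2.2, 2.23 and 4.23, and the T354M libraries 2.72, 2.05, 1.87 and 2.29. Every GATA2 library lay above every enhancer-null control, while the R307W and T354M libraries overlapped with the controls. The enhancer-null control was 5.5-fold below the wild-type control (log2 difference -2.46, SE 0.36, adjusted p = 1.8e-05), and GATA2 raised Itga2 by 8.34-fold (3.06, SE 0.36, adjusted p = 1.41e-05). With R307W the difference was 0.14 (SE 0.36, adjusted p = 0.828) and with T354M -0.32 (SE 0.36, adjusted p = 0.608).

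Itga4 encodes alpha 4, which binds VCAM-1 and fibronectin and pairs with beta 1 or beta 7. It stood at 369, 456, 528 and 592 CPM in the wild-type control, 455, 457, 436 and 419 in the enhancer-null control, and 465, 503, 502 and 452 with GATA2. R307W libraries held 795, 589, 693 and 755 CPM, and T354M libraries 541, 426, 362 and 390. Only the R307W group lay wholly above the enhancer-null control (0.68, SE 0.13, adjusted p = 0.00202), and the other differences from that control were not called.

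Itga9 encodes alpha 9, a beta 1 partner that binds matrix proteins and VCAM-1. Its libraries measured 2.22, 3.19, 3.99 and 6.36 CPM in the wild-type control, 2.82, 1.8, 1.84 and 1.95 in the enhancer-null control and 7.88, 4.49, 2.36 and 7.88 with GATA2. With R307W they were 6.27, 2.43, 1.98 and 6.34 CPM and with T354M 3.42, 1.2, 1.98 and 1.64. Replicate 3 of the GATA2 group lay within the control range, and the rise with GATA2 (1.42, SE 0.45, adjusted p = 0.0321) was lost without GATA2 replicate 4 (adjusted p = 0.113) or replicate 1 (adjusted p = 0.0928), and without enhancer-null control replicate 2, 3 or 4 (adjusted p = 0.0767, 0.0776 and 0.076). An antisense gene, Gm2415, had 17.3% of the mean level of Itga9, and use of strand in counting is not given in the sources used here. Of the 16 genes of the 32 that overlap another annotated gene, Itga9 and Itgae were those whose partner exceeded 10% of their level.

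Itgae encodes alpha E (CD103), which pairs with beta 7 and binds E-cadherin. It measured 0.348, 0.638, 0.188 and 0.514 CPM in the wild-type control and 2.48, 1.34, 3.23 and 4.01 in the enhancer-null control. GATA2 libraries stood at 1.22, 1.07, 1.2 and 1.23 CPM, R307W at 1.62, 0.848, 1.65 and 3.77, and T354M at 0.838, 1.04, 1.91 and 1.16. The enhancer-null control lay wholly above the wild-type control (2.70, SE 0.45, adjusted p = 8.71e-05) and above the GATA2 group (-1.23, SE 0.41, adjusted p = 0.0402). With T354M the difference was -1.16 (adjusted p = 0.0544) and was called with DESeq2 (0.0282) and when only these 8 libraries were fitted (0.0484). The call with GATA2 was lost when any of its 4 libraries was left out (adjusted p = 0.0811, 0.0926, 0.0642 and 0.095) and without enhancer-null control replicate 1, 3 or 4 (adjusted p = 0.0612, 0.0902 and 0.135). Haspin, a gene on the opposite strand inside Itgae, had 1631% of its mean level, so reads of the neighbour could not be told apart from Itgae where counting ignored strand.

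Itgal, the alpha L chain of LFA-1, was higher in the enhancer-null control (53.9 ± 2.05 CPM) than in the wild-type control (29.4 ± 10.6 CPM; 0.87, SE 0.21, adjusted p = 0.00205) and stayed between 51.3 and 57.9 CPM on average with the 3 vectors, with no call. Itga6, the laminin receptor chain alpha 6, fell from 199 ± 21.6 CPM to 142 ± 24.1 with GATA2 (-0.49, adjusted p = 0.0317) and 138 ± 25.2 with R307W (-0.53, adjusted p = 0.0232). Itgam, the CD11b chain of Mac-1 on myeloid cells, fell from 250 ± 26.2 to 163 ± 21.2 CPM with R307W (-0.61, adjusted p = 0.0114). Replicate 4 was the lowest library of the vector groups for Itga6. Once replicate 4 of every group was left out these calls were lost, with adjusted p of 0.155 and 0.134 for Itga6 and 0.0912 for Itgam. The GATA2 call of Itga6 was also lost without GATA2 replicate 1, 2 or 4 or enhancer-null control replicate 3 or 4 (0.0629 to 0.126), its R307W call without R307W replicate 1 or 4 or the same controls (0.0559 to 0.101), and that of Itgam without R307W replicate 4 (0.0543). Itga5, the fibronectin receptor chain, ranged only from 19.2 to 21.8 CPM in mean over the 5 groups, and Itgav, the alpha V chain, from 38.3 to 53.5 CPM. Neither was called in any of the 8 comparisons.

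Of the integrin beta subunits, Itgb3 encodes beta 3, the chain of the platelet fibrinogen receptor and of the alpha V beta 3 vitronectin receptor. It stood at 125, 152, 144 and 186 CPM in the wild-type control and 40.6, 35.8, 48.7 and 83.8 in the enhancer-null control. The GATA2 libraries held 96.1, 76.9, 49.4 and 125 CPM, the R307W libraries 39.2, 34.5, 41 and 40.7, and the T354M libraries 37.4, 38.8, 41.9 and 53.1. No enhancer-null control library reached the lowest wild-type one, and the difference was -1.54 (SE 0.25, adjusted p = 7.07e-05). The rise with GATA2 was 0.73 (SE 0.25, adjusted p = 0.0461), with overlapping libraries. It was lost without GATA2 replicate 4 (adjusted p = 0.215), replicate 1 (0.103) or replicate 2 (0.0609), and without enhancer-null control replicate 1, 2 or 3 (0.128, 0.136 and 0.103), and it was not called when only these 8 libraries were fitted (0.124). R307W and T354M gave differences of -0.43 and -0.29 that were not called.

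Itgb5 encodes beta 5, the chain of the alpha V beta 5 vitronectin receptor of macrophages and other cells. Its libraries held 16.6, 12.2, 8.26 and 12.2 CPM in the wild-type control and 40.3, 37.1, 48.3 and 67.9 in the enhancer-null control. With GATA2 they held 20.3, 21.2, 31.8 and 15 CPM, with R307W 22.7, 37.7, 32.6 and 22, and with T354M 24.7, 35.9, 28.5 and 25. The enhancer-null control was the highest group, 3.93-fold over the wild-type control (1.97, SE 0.26, adjusted p = 5.83e-06). All 3 vectors lowered it, by -1.13 with GATA2 (SE 0.25, adjusted p = 0.00389), -0.75 with R307W (SE 0.25, adjusted p = 0.0425) and -0.76 with T354M (SE 0.25, adjusted p = 0.0397). When replicate 4 of every group was left out these values were -0.78, -0.43 and -0.50 (adjusted p = 0.0532, 0.312 and 0.234). The R307W call was lost without R307W replicate 1, 3 or 4 or enhancer-null control replicate 3 or 4 (0.0517 to 0.162), and the T354M call without T354M replicate 1, 3 or 4 or the same controls (0.0692 to 0.162).

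Itgb7 encodes beta 7, the partner of alpha 4 and alpha E. It measured 38.7, 32.3, 44.6 and 35.6 CPM in the wild-type control, 76.3, 54.7, 70.6 and 89.5 in the enhancer-null control and 133, 129, 97.4 and 192 with GATA2. R307W libraries held 93.4, 94.1, 75.5 and 176 CPM and T354M libraries 41.4, 36.3, 39.5 and 61.3. Itgb7 was higher after loss of the enhancer (0.94, SE 0.25, adjusted p = 0.00427) and higher again with GATA2 (0.92, SE 0.24, adjusted p = 0.0133), so that adding GATA2 moved it further from the wild-type level. The call with GATA2 was lost without GATA2 replicate 4 (adjusted p = 0.0699). The differences with R307W (0.59, adjusted p = 0.0993) and T354M (-0.71, adjusted p = 0.054) were of opposite sign and not called. The T354M value was called under 11 alternatives, among them DESeq2 (0.0225), a fit of only these 8 libraries (0.0233), log2(TPM + 1) values (0.0448) and the fit without replicate 4 of every group (0.00476).

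Itgb1, the common beta 1 chain, stood at 299, 314, 283 and 245 CPM in the wild-type control, 232, 251, 239 and 224 in the enhancer-null control and 288, 252, 233 and 280 with GATA2. R307W libraries held 225, 205, 218 and 194 CPM and T354M libraries 200, 214, 212 and 194. Its group means lay between 205 and 285 CPM, so its differences were small beside those of Itgb3. Itgb2, the common chain of leukocyte integrins, had its highest mean with GATA2 (205 ± 27 CPM, against 157 ± 16.3 in the enhancer-null control). That difference (0.39, SE 0.13, adjusted p = 0.0504) was called with the replicate number as a block (0.38, adjusted p = 0.00578), with DESeq2 (0.0414) and when only these 8 libraries were fitted (0.0267).

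**Figure D3:**
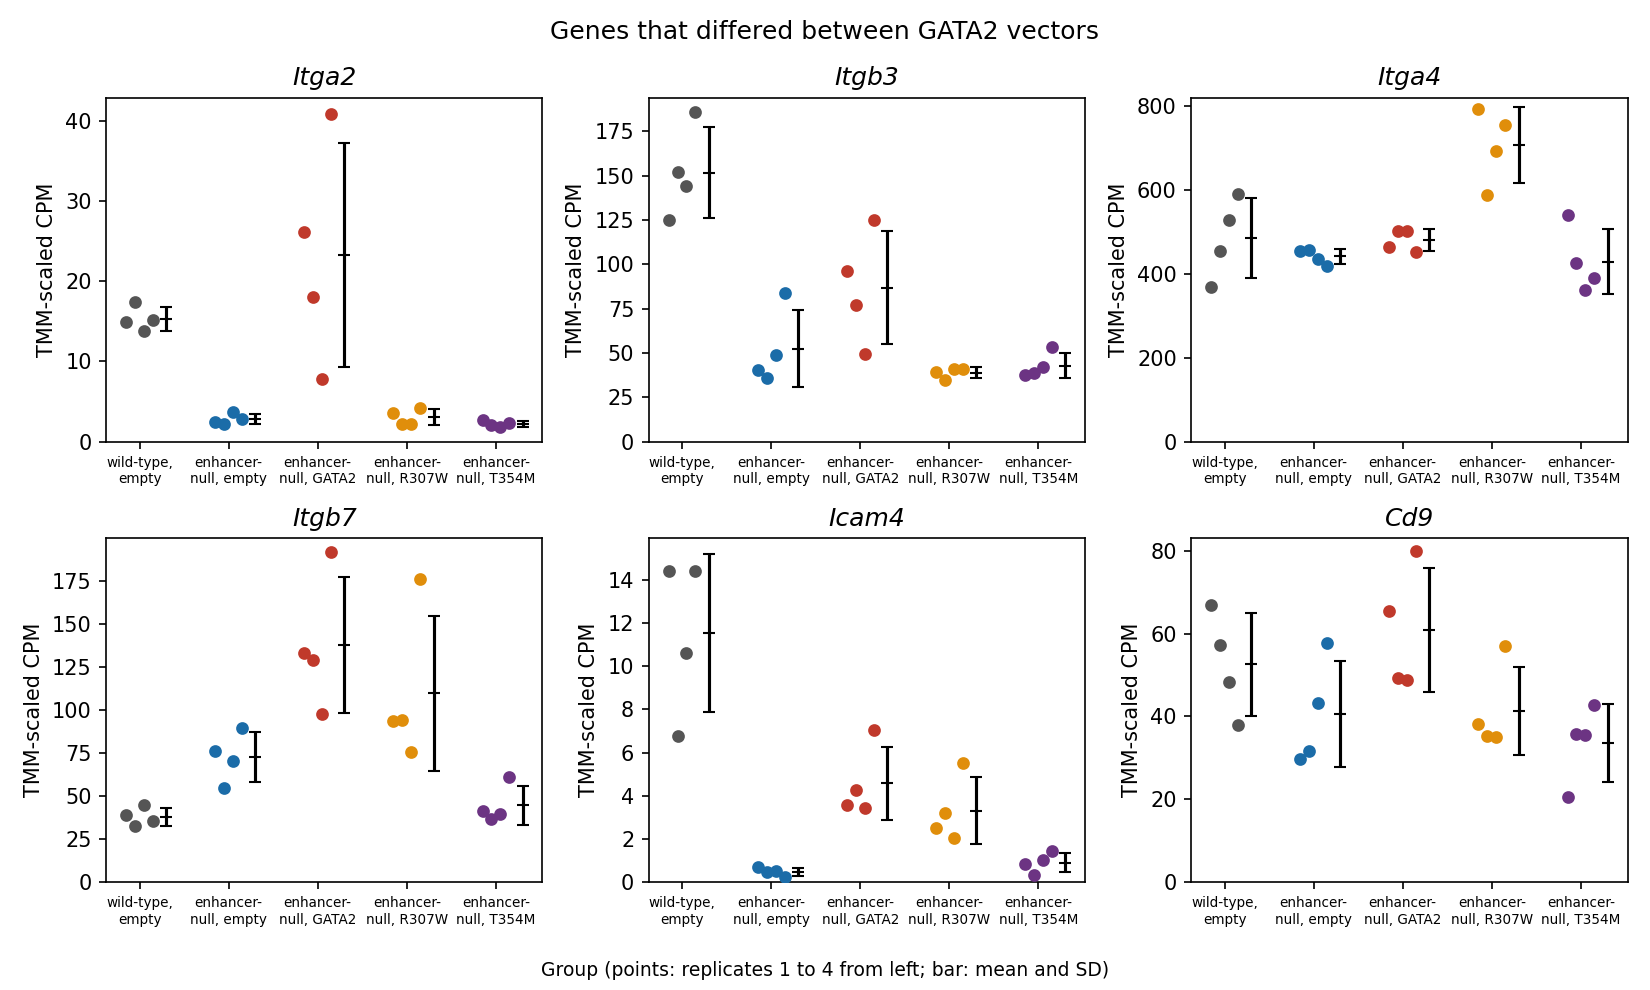
TMM-scaled CPM of Itga2, Itgb3, Itga4, Itgb7, Icam4 and Cd9 in each library, with mean and SD of the group as the bar. For Itga2 the 4 GATA2 libraries (7.83 to 40.9 CPM) lie above all R307W and T354M libraries (1.87 to 4.23 CPM). For Itga4 the R307W libraries (589 to 795 CPM) lie above all others except wild-type control replicate 4 (592 CPM).

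Megakaryocyte markers moved with Itga2 and Itgb3 on loss of the enhancer. The 11 listed markers were all lower, and their summed level was 415 to 693 CPM in the wild-type control, 112 to 336 in the enhancer-null control, 157 to 231 with GATA2, 96.3 to 133 with R307W and 103 to 167 with T354M, with no marker at 0. With the GATA2 vector 1 of the 11 was called higher and 2 lower. Mast cell and basophil markers summed to 840 to 1057 CPM in the wild-type control, 120 to 132 in the enhancer-null control with Tpsb2 at 0, 1428 to 4565 with GATA2, 633 to 1230 with R307W and 557 to 1680 with T354M. Of these 11, 6 were lower with R307W and 7 with T354M than with GATA2. Gata2 itself is among these 11, so its level, set by the knockout and the vectors, is part of these sums. Neutrophil markers, listed as myeloid cells make Itgam and Itgb2, summed to 8241 to 17660 CPM in the wild-type control, 3694 to 5027 in the enhancer-null control, 2691 to 3872 with GATA2, 4021 to 6182 with R307W and 6347 to 8207 with T354M. Of 12, 9 were lower on loss, 7 were lower with GATA2, and 6 were higher with T354M than with GATA2. Lymphoid markers, listed as lymphocytes make Itgae, Itgal and Itgb7, summed to 20.2 to 27 CPM in the wild-type control, 38.5 to 46.8 in the enhancer-null control, 46 to 67.6 with GATA2, 52.8 to 63.1 with R307W and 46.6 to 64.4 with T354M, where Ncr1 was at 0. Of 5, 3 were higher and 1 lower on loss, and 2 were higher and 3 lower with GATA2. The part of these cell types in the integrin values was not tested.

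Of the other adhesion molecules, Icam4 and Icam1 lie side by side on chromosome 9 (GRCm38 with GENCODE M21 annotation, chr9:21015985-21028817 for Icam1 and chr9:21029373-21030595 for Icam4, both on the plus strand), with 555 bases between them. Icam4 encodes the red cell membrane protein ICAM-4, which binds leukocyte and platelet integrins. It stood at 14.4, 6.77, 10.6 and 14.4 CPM in the wild-type control and 0.677, 0.461, 0.481 and 0.213 in the enhancer-null control. With GATA2 it reached 3.58, 4.26, 3.41 and 7.03 CPM, with R307W 2.49, 3.2, 2.02 and 5.5, and with T354M 0.838, 0.309, 1.01 and 1.42. Wild-type, GATA2 and R307W libraries all lay above all enhancer-null controls, and the T354M libraries overlapped with them. The enhancer-null control was 25.1-fold below the wild-type control (-4.65, SE 0.46, adjusted p = 2.09e-07). GATA2 raised Icam4 by 3.31 (SE 0.45, adjusted p = 5.2e-05) and R307W by 2.85 (SE 0.45, adjusted p = 0.000247), while the T354M value was 0.98 (SE 0.47, adjusted p = 0.165).

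Icam1 encodes the endothelial and leukocyte ligand of LFA-1 and Mac-1 and is induced by inflammatory cytokines. It moved the other way: 20.7, 14, 10.1 and 11.7 CPM in the wild-type control and 46.7, 41.1, 42 and 41 in the enhancer-null control. GATA2 libraries measured 23.7, 23.2, 29.6 and 19.4 CPM, R307W libraries 23, 27.7, 22.8 and 12.6, and T354M libraries 21.9, 28.8, 24.5 and 15.9. The 4 enhancer-null controls were higher than each other library of the series. The rise on loss of the enhancer was 1.60 (SE 0.23, adjusted p = 2.16e-05), and the falls with the vectors were -0.83 (SE 0.23, adjusted p = 0.0161) for GATA2, -0.99 (SE 0.23, adjusted p = 0.00651) for R307W and -0.91 (SE 0.23, adjusted p = 0.0107) for T354M. Without GATA2 replicate 4, the lowest of its group, the GATA2 call was lost (adjusted p = 0.0672).

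Jaml, a junctional adhesion molecule-like receptor of myeloid and T cells, followed the same order as Icam1. Its libraries held 0.522, 1.37, 1.41 and 0.992 CPM in the wild-type control and 5.57, 3.52, 6.07 and 7.25 in the enhancer-null control. Those with GATA2 held 2.26, 1.29, 3.19 and 1.03 CPM, with R307W 2.2, 2, 1.9 and 0.876, and with T354M 1.5, 2.01, 2.6 and 1.22. All vector and wild-type libraries lay below the lowest enhancer-null control. The rise was 2.39 (SE 0.39, adjusted p = 7.34e-05) and the falls were -1.53 (SE 0.37, adjusted p = 0.00782), -1.69 (SE 0.38, adjusted p = 0.00508) and -1.61 (SE 0.37, adjusted p = 0.00626) with GATA2, R307W and T354M.

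Selplg, which encodes the selectin ligand PSGL-1, stood at 47.7, 41.5, 39.3 and 46.3 CPM in the wild-type control and 85.9, 83.7, 92.6 and 122 in the enhancer-null control. The GATA2 libraries held 91.9, 102, 90.8 and 126 CPM, the R307W libraries 72.1, 106, 81.9 and 119, and the T354M libraries 66.1, 74.7, 75.7 and 86.3. Every enhancer-null library, with any vector, lay above every wild-type one. The rise on loss of the enhancer was 1.13 (SE 0.15, adjusted p = 9.19e-06), and no vector's difference was called (0.10, -0.02 and -0.34, adjusted p = 0.729, 0.944 and 0.133).

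Esam, an immunoglobulin-like adhesion molecule of endothelium, platelets and stem cells, also stayed away from the wild-type level. It measured 4.13, 5.79, 5.12 and 6.1 CPM in the wild-type control, 1.2, 1.93, 1.62 and 2.98 in the enhancer-null control and 0.967, 1.75, 1.31 and 1.34 with GATA2. R307W libraries held 0.582, 1, 1.2 and 0.785 CPM and T354M libraries 0.873, 0.811, 1.3 and 0.709. All enhancer-null libraries were lower than the wild-type ones. The loss was -1.45 (SE 0.27, adjusted p = 0.000292), GATA2 gave -0.53 (SE 0.28, adjusted p = 0.212), and Esam was lower still with R307W (-1.12, SE 0.29, adjusted p = 0.0131) and T354M (-1.07, SE 0.29, adjusted p = 0.016). Without enhancer-null control replicate 4, its highest library, these 2 calls were lost (adjusted p = 0.066 and 0.0834), as they were without replicate 4 of R307W (0.0531) or of T354M (0.0629).

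Pecam1, the homophilic receptor CD31 of endothelium, platelets and leukocytes, was not called on loss of the enhancer and rose with each vector. Its libraries measured 45.9, 61.1, 57.4 and 46 CPM in the wild-type control and 49.2, 46.5, 47.6 and 52.3 in the enhancer-null control. They held 134, 120, 102 and 141 CPM with GATA2, 97.7, 80.9, 78.1 and 105 with R307W, and 148, 91.9, 118 and 183 with T354M. All vector libraries lay above all control libraries of both genotypes. The difference on loss was -0.10 (SE 0.17, adjusted p = 0.647), and the rises were 1.34 (SE 0.17, adjusted p = 2.55e-05), 0.89 (SE 0.17, adjusted p = 0.00134) and 1.47 (SE 0.17, adjusted p = 7.05e-06) with GATA2, R307W and T354M.

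Alcam, a CD6 ligand of activated leukocytes and stroma, stood at 39.5, 29.7, 14.4 and 21.9 CPM in the wild-type control and 32, 27.2, 41.1 and 33.3 in the enhancer-null control. With GATA2 it held 16, 13.3, 22.6 and 8.16 CPM, with R307W 16.5, 18.1, 23.7 and 7.88, and with T354M 25.4, 28.2, 23.4 and 15.7. Replicate 4 was the lowest library of all 3 vector groups. GATA2 lowered it by -1.15 (SE 0.33, adjusted p = 0.0213) and R307W by -1.02 (SE 0.33, adjusted p = 0.0418), and T354M gave -0.53 (adjusted p = 0.299). Without replicate 4 of the GATA2 or R307W group the calls were lost (adjusted p = 0.0841 and 0.144), as they were without enhancer-null control replicate 3 (0.0598 and 0.107). For GATA2 this was so also without its replicate 2 (0.0579), and for R307W without its replicate 1 or 2 (0.0825 and 0.0528) or enhancer-null control replicate 1 or 4 (0.0689 and 0.0779).

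The remaining 4 were described by their means. Cd47 fell from 263 ± 68.8 to 162 ± 13.9 CPM on loss of the enhancer (-0.70, SE 0.15, adjusted p = 0.000649). It was back at 249 ± 26.4 with GATA2, 253 ± 28.2 with R307W and 269 ± 33.5 with T354M, with rises of 0.62, 0.65 and 0.73 (adjusted p = 0.00609, 0.00533 and 0.00197). Icam2, an LFA-1 ligand of endothelium and leukocytes, rose from 13.6 ± 1.7 to 21.5 ± 0.841 CPM on loss (0.66, adjusted p = 0.000156) and rose further to 27 ± 1.82, 27.9 ± 2.77 and 33.4 ± 5.81 CPM with GATA2, R307W and T354M (0.33, 0.38 and 0.64, adjusted p = 0.0496, 0.03 and 0.000929). The GATA2 call of Icam2 lay at the threshold and was lost with DESeq2 size factors (0.0603), without GATA2 replicate 1, 2 or 4, or without any of the enhancer-null controls (0.0695 to 0.147). Its R307W call was lost without R307W replicate 2 or 4 or any of those controls (0.0529 to 0.126). Cd44, the hyaluronan receptor, fell with GATA2 from 265 ± 21.9 to 180 ± 30.9 CPM (-0.56, adjusted p = 0.0183), which was lost without GATA2 replicate 4 (0.0805) or enhancer-null control replicate 4 (0.0524). On loss of the enhancer Cd44 differed by 0.38 (adjusted p = 0.0559) and was called under 8 alternatives, such as DESeq2 (0.0389). With R307W and T354M it differed by -0.45 and -0.39 (adjusted p = 0.0549 and 0.0907), and DESeq2 called both (0.0215 and 0.0484). F11r, the junctional protein JAM-A, passed the threshold in none of the 8 comparisons. Its difference with GATA2 was -0.91 (adjusted p = 0.105), and with the replicate number as a block it was -1.0 (adjusted p = 0.0187). With R307W it was -1.12 (adjusted p = 0.0508), called under 7 alternatives such as DESeq2 (0.0162) and no filter on low counts (0.0235), and with T354M -0.93 (adjusted p = 0.1), called when only these 8 libraries were fitted (0.0298).

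**Figure D4:**
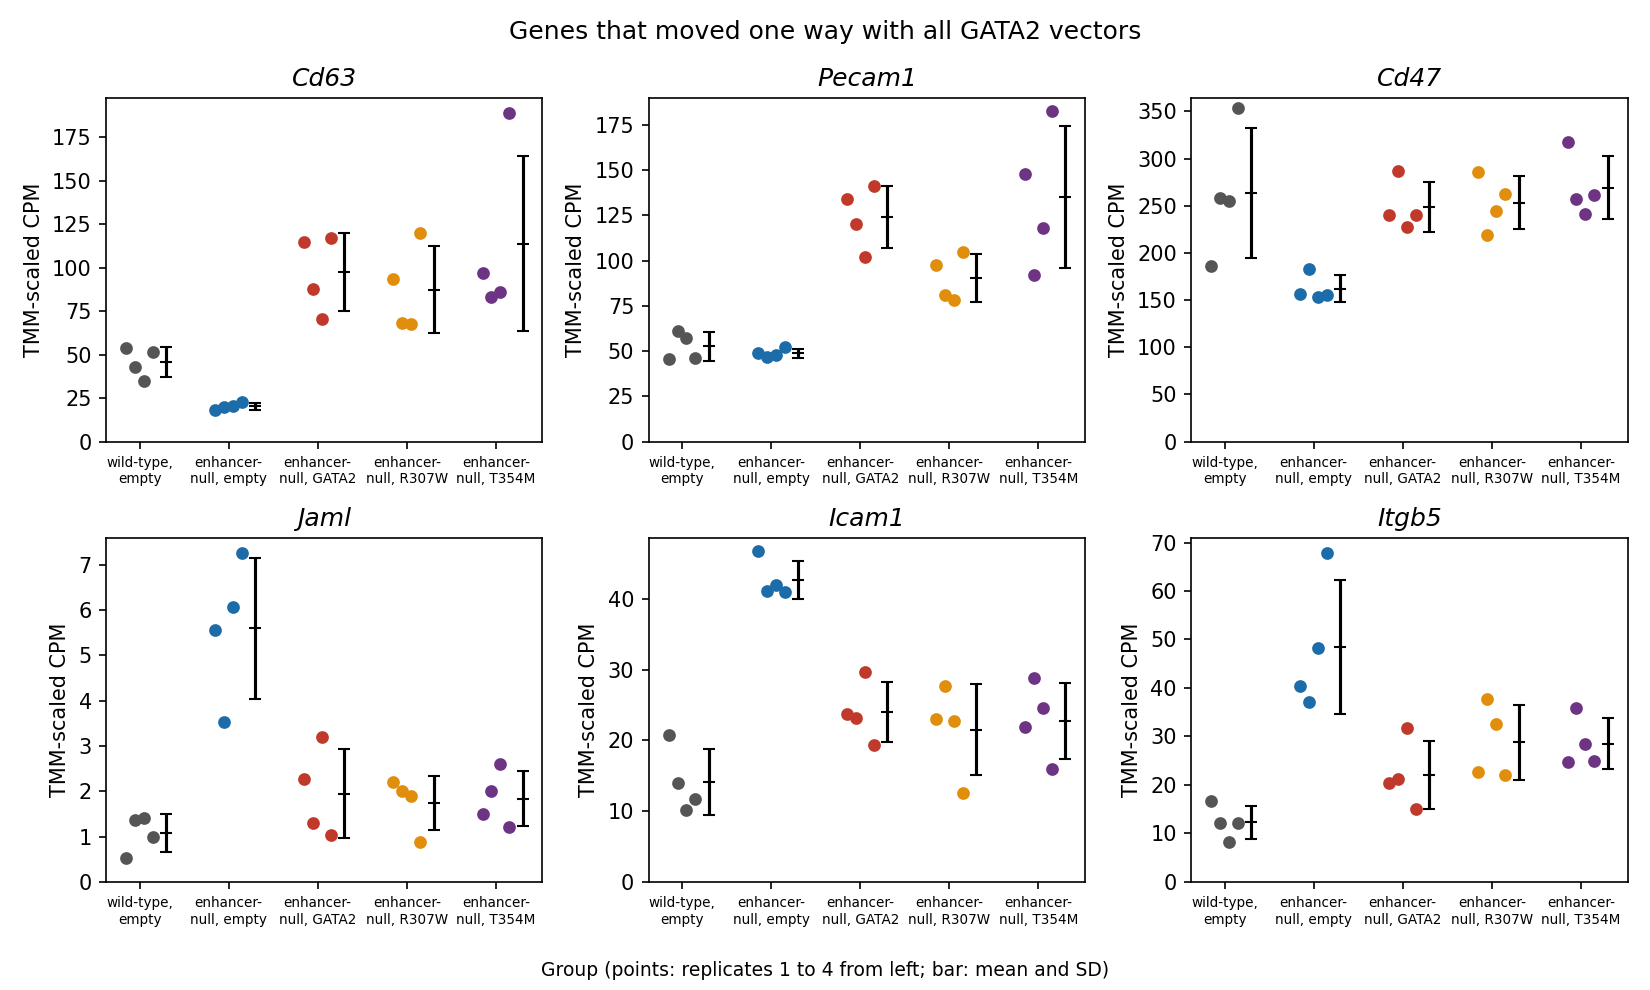
TMM-scaled CPM of Cd63, Pecam1, Cd47, Jaml, Icam1 and Itgb5 in each library, with mean and SD of the group as the bar; all 6 were called in the same direction with GATA2, R307W and T354M against the enhancer-null control. Cd63 and Pecam1 lie above both control groups with each vector, and Jaml, Icam1 and Itgb5 peak in the enhancer-null control.

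Several marker lists moved with these genes. Erythroid markers moved with Icam4 on loss of the enhancer, where 12 of 12 were lower. Their summed level was 4698 to 7761 CPM in the wild-type control and 622 to 1211 in the enhancer-null control. It was 778 to 1257 with GATA2, 765 to 1305 with R307W and 581 to 698 with T354M. With GATA2, as with R307W, 6 of the 12 were higher and 2 lower than in the enhancer-null control. With T354M 8 of the 12 were lower than in the enhancer-null control, and 6 were higher with R307W than with T354M. Monocyte and macrophage markers moved with Icam1, Jaml and Itgb5, and on loss of the enhancer also with Selplg: 11 of 12 were higher on loss, 7, 6 and 6 were lower with GATA2, R307W and T354M, and the summed level was 1390 to 3064 CPM in the wild-type control, 5608 to 6405 in the enhancer-null control, 1192 to 3641 with GATA2, 1163 to 3865 with R307W and 1356 to 4560 with T354M. Dendritic cell markers were higher for 10 and lower for 1 of 11, at 57.2 to 65.7 CPM in the wild-type control, 289 to 471 in the enhancer-null control, and 79.8 to 231 with the vectors. Endothelial markers, listed because endothelium also makes Pecam1 and Esam, summed to 18.6 to 44.4 CPM over all libraries, and with GATA2 2 of 10 were higher and 3 lower. No marker of these lists was at 0 in a group, and their part in the results was not tested.

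Among the tetraspanins Cd63 changed most. It is a marker of late endosomes, lysosomes and the granules of basophils, mast cells and platelets. Its libraries measured 53.7, 43, 34.9 and 51.5 CPM in the wild-type control and 18, 19.6, 20.3 and 22.9 in the enhancer-null control. With GATA2 they held 115, 88, 70.3 and 117 CPM, with R307W 93.3, 68, 67.5 and 120, and with T354M 97.2, 83.1, 86.2 and 189. The 3 vector groups lay above every control library, wild-type ones included. Cd63 fell by 1.18 on the log2 scale on loss of the enhancer (SE 0.25, adjusted p = 0.000857) and rose 4.83-fold with GATA2 (2.27, SE 0.26, adjusted p = 1.06e-05), 4.32-fold with R307W (2.11, SE 0.26, adjusted p = 1.85e-05) and 5.63-fold with T354M (2.49, SE 0.26, adjusted p = 2.19e-06).

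Cd9, a tetraspanin of platelets and mast cells that associates with beta 1 integrins, stood at 67, 57.3, 48.2 and 37.8 CPM in the wild-type control, 29.6, 31.7, 43.3 and 57.7 in the enhancer-null control and 65.6, 49.4, 48.7 and 80.1 with GATA2. R307W libraries held 38.1, 35.2, 35 and 57.1 CPM and T354M libraries 20.5, 35.7, 35.5 and 42.7. Each vector group overlapped with both control groups, and neither the loss of the enhancer (-0.37, SE 0.25, adjusted p = 0.245) nor a vector against the enhancer-null control was called. Without replicate 4 of every group the loss was called for Cd9 (-0.72, adjusted p = 0.0115). Its difference with GATA2 (0.59, adjusted p = 0.112) was called with the replicate block over the 16 enhancer-null libraries (0.013). It was called also without enhancer-null control replicate 4 (0.0453).

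Cd81 and Cd82, tetraspanins that regulate receptor clustering and migration, were lower on loss of the enhancer and stayed low. Cd81 fell from 92.1 ± 5.27 to 58.3 ± 3.35 CPM (-0.66, SE 0.07, adjusted p = 4.48e-07) and stood between 61.8 and 65.3 CPM on average with the vectors. Cd82 fell from 22.3 ± 2.7 to 12.6 ± 1.65 CPM (-0.82, SE 0.13, adjusted p = 3.49e-05) and stood between 11.9 and 13.9 CPM with the vectors, and no vector's difference was called for either gene. Cd53 rose from 216 ± 69.4 to 317 ± 25.9 CPM on loss (0.56, SE 0.15, adjusted p = 0.00447) and to 433 ± 18.1 with GATA2 (0.45, adjusted p = 0.0374), a call lost without GATA2 replicate 1, 2 or 4 (0.0711, 0.0808 and 0.101) and without enhancer-null control replicate 1, 3 or 4 (0.0943, 0.0615 and 0.0969). Cd37, a tetraspanin of B cells and other leukocytes, was at 24.1 ± 1.8 CPM in the enhancer-null control and rose to 34.4 ± 6.58 with R307W (0.51, adjusted p = 0.0362) and 41 ± 10.8 with T354M (0.76, adjusted p = 0.00345). With GATA2 it was at 33.3 ± 5.67 (0.46, adjusted p = 0.053), called with the replicate number as a block (0.45, adjusted p = 0.00687), and the R307W call was lost without R307W replicate 4 (0.168) or 2 (0.0542) and without any enhancer-null control in turn (0.0629, 0.0867, 0.0839 and 0.057). Cd151, a partner of laminin-binding integrins, fell from 18.7 ± 3.08 CPM to between 12.8 and 13.3 CPM with each vector (-0.50, -0.55 and -0.51, adjusted p = 0.0325, 0.0217 and 0.0295), and none of these calls held once replicate 4 of every group was left out (0.222, 0.2 and 0.217). They were lost also without GATA2 replicate 1, 2 or 4 or enhancer-null control replicate 1, 3 or 4 (0.0506 to 0.113), without R307W replicate 1 or 4 or control replicate 4 (0.0599 to 0.0941), and without T354M replicate 1 or 4 or control replicate 1, 3 or 4 (0.0549 to 0.107).

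Eosinophil markers moved with Cd63. They summed to 623 to 1003 CPM in the wild-type control, 8.21 to 13.8 in the enhancer-null control, 1801 to 3178 with GATA2, 1242 to 3146 with R307W and 1006 to 5634 with T354M. All 8 were lower on loss of the enhancer, and 8, 8 and 7 of 8 were higher with GATA2, R307W and T354M. Replicate 4 of the T354M group held the highest Cd63 count of the series. The part of these cells in the Cd63 values was not tested.

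The variants were then set against GATA2 directly, which asks whether the changed proteins gave another response. The records of the R307W and T354M groups were numbered apart from those of the other groups and titled in another style. Whether both sets of libraries were made together is not given in the sources used here. A difference between the sets could not be told apart from the change in the protein in any comparison across them. With R307W 3 of the 32 genes differed from GATA2, where 1.73% of all genes were called, 0.587% higher and 1.14% lower. Itga2 was 7.56-fold lower (-2.92, SE 0.36, adjusted p = 0.000211) and Itgb3 2.23-fold lower (-1.16, SE 0.25, adjusted p = 0.0189), with no overlap of libraries for either. Itga4 was 1.47-fold higher (0.56, SE 0.13, adjusted p = 0.037), again with no overlap. Libraries did not overlap for 6 of the 32, uncalled genes among them. The share of all genes without overlap was not computed for the comparisons between vectors. The Itga2 call held under each alternative. Without GATA2 replicate 4 the calls of Itgb3 and Itga4 were lost (adjusted p = 0.109 and 0.149), as they were without GATA2 replicate 1 (0.0573 and 0.119) and without R307W replicate 1 (0.0607 and 0.132) or replicate 3 (0.0523 and 0.0844). Itgb3 was lost also without R307W replicate 2 (0.0695), and Itga4 without GATA2 replicate 2 or 3 (0.0705 and 0.0538) or R307W replicate 4 (0.0885). Itga4 was not called on log2(TPM + 1) values (0.155), nor Itgb3 when only these 8 libraries were fitted (0.0768), and on log2(TPM + 0.1) values 0 of the 32 were higher and 2 lower. Blocking on the replicate number gave 5 calls, adding Itgb1 (-0.32, adjusted p = 0.0346) and Itgb2 (-0.37, adjusted p = 0.0414).

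With T354M 7 of the 32 differed from GATA2, all lower, where 10% of all genes were called, 3.86% higher and 6.14% lower. Itga2 was 10.4-fold lower (-3.38, SE 0.37, adjusted p = 1.04e-05), Icam4 5.05-fold (-2.34, SE 0.41, adjusted p = 0.00084) and Itgb7 3.09-fold (-1.63, SE 0.25, adjusted p = 0.00025), and these 3 calls held under each alternative. Smaller differences were called for Itga9 (-1.45, SE 0.45, adjusted p = 0.0438), Itgb3 (-1.02, SE 0.25, adjusted p = 0.0114), Cd9 (-0.86, SE 0.25, adjusted p = 0.0343) and Itgb1 (-0.36, SE 0.08, adjusted p = 0.00736). Libraries overlapped for Itga9 and Itgb3 and not for the other 5, while 6 of all 32 genes had no overlap. Without GATA2 replicate 4 the calls of Itga9, Itgb3 and Cd9 were lost (adjusted p = 0.156, 0.0665 and 0.151). Itga9 and Cd9 were lost also without GATA2 replicate 1 (0.128 and 0.0791) and T354M replicate 2 (0.119 and 0.0571) or 3 (0.0912 and 0.0614), Cd9 without T354M replicate 1 (0.118) and Itga9 without T354M replicate 4 (0.105). With only these 8 libraries fitted, Itga9 and Cd9 were not called (0.0755 and 0.0536). Itgb1 was not called on log2(TPM + 1) values (adjusted p = 0.204). Selplg (-0.44, adjusted p = 0.0782) was called with the replicate number as a block (-0.43, adjusted p = 0.0088).

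Between the variants 3 genes were higher with R307W than with T354M and none was lower, where 3.49% of all genes were called, 2.3% higher and 1.19% lower. These were Icam4 (1.88, SE 0.41, adjusted p = 0.0118), Itgb7 (1.3, SE 0.25, adjusted p = 0.00444) and Itga4 (0.72, SE 0.13, adjusted p = 0.00397), and libraries of the 2 groups did not overlap for any of them. The Icam4 call was lost without R307W replicate 4 (adjusted p = 0.0684). When only the 8 libraries of these groups were fitted, Itga4 alone remained called, with Icam4 at 0.09 and Itgb7 at 0.0566. The Pecam1 difference was -0.58 (adjusted p = 0.0615) and was called with the replicate number as a block (-0.57, adjusted p = 0.0369). The Gata2 counts of the 3 vector groups overlapped, and the GATA2 group's mean of 80.7 CPM was the highest, with a wide spread. The level of vector expression may therefore differ along with the protein in the comparisons against GATA2. The part of that level in these differences was not tested.

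The GATA2-rescued cells were last set against wild-type cells, a comparison that asks how far the levels returned. Of the 32 genes 18 differed, where 30.7% of all genes were called, 14.7% higher and 16% lower. The 12 higher were Itgae, Itgal, Itgb2, Itgb5, Itgb7, Icam1, Icam2, Selplg, Pecam1, Cd63, Cd37 and Cd53, and the 6 lower were Itgb3, Icam4, Esam, Cd81, Cd82 and Cd151. Itga2 (0.60, SE 0.33, adjusted p = 0.173), Itgb1 (-0.12, SE 0.08, adjusted p = 0.312), Cd47 (-0.08, SE 0.14, adjusted p = 0.705) and Jaml (0.86, SE 0.39, adjusted p = 0.108) had been changed by loss of the enhancer and were not called here. Without GATA2 replicate 3 Itga2 was called above the wild-type control (0.93, adjusted p = 0.00923), as Jaml was without GATA2 replicate 4 (1.07, adjusted p = 0.0492). Icam4 remained 2.53-fold below the wild-type control (-1.34, SE 0.37, adjusted p = 0.0102) and Itgb3 1.75-fold (-0.80, SE 0.25, adjusted p = 0.0187). Itgb7 was 3.65-fold above it (1.87, SE 0.25, adjusted p = 1.49e-05), Pecam1 2.36-fold (1.24, SE 0.17, adjusted p = 1.62e-05) and Cd63 2.13-fold (1.09, SE 0.25, adjusted p = 0.00235). Among the tetraspanins 6 of 7 were called, all but Cd9. Of the 18 calls 13 held under each alternative. The others were Itgae, lost without wild-type control replicate 1 or 3 (0.0504 and 0.0578), Itgb3, lost without GATA2 replicate 2 or 3 or wild-type control replicate 4 (0.0662, 0.0791 and 0.0763), Itgb5, lost without GATA2 replicate 3 (0.0601), Cd37, lost without GATA2 replicate 4 (0.0594), and Cd151, lost on log2(TPM + 1) values (0.177).

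Wider lists of adhesion genes, outside the 32, are given beside the shares of all genes called, which were 20.1% higher and 23.2% lower on loss of the enhancer and 11% higher and 8.23% lower with GATA2. Of 9 other integrin subunits tested, 3 were higher and 2 lower on loss of the enhancer, led by Itgax, the CD11c chain of dendritic cells and macrophages, which rose from 1.83 ± 0.643 to 16.6 ± 5.23 CPM (3.18, SE 0.3, adjusted p = 1.35e-07) and fell with GATA2 (-1.36, adjusted p = 0.00183). Itga3 had the lowest difference (-1.85, adjusted p = 0.0104, overlapping libraries) and was not called with GATA2 (-0.41, adjusted p = 0.687). Of 38 genes of integrin activation and signalling, 14 were higher and 7 lower on loss, and 3 and 8 with GATA2. The adaptor Skap1 fell to 0.0673 ± 0.0467 CPM from 1.68 ± 0.414 (-4.52, adjusted p = 0.000418) and rose to 2.93 ± 2.39 with GATA2 (5.32, adjusted p = 0.000355).

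Of 27 other adhesion receptors, 7 were higher and 12 lower on loss (20.1% and 23.2% of all genes), and 6 and 6 with GATA2 (11% and 8.23% of all genes). Cd96, a receptor of lymphoid and early progenitor cells, was 17 ± 4.48 CPM in the enhancer-null control and 1 ± 0.311 in the wild-type control (4.09, adjusted p = 2.68e-09), and fell with GATA2 (-0.98, adjusted p = 0.00606). Gp1ba, a chain of the platelet receptor for von Willebrand factor, fell (-2.43, adjusted p = 9.4e-06) and was not called with GATA2 (0.06, adjusted p = 0.94). Of 17 other tetraspanins, 5 were higher and 7 lower on loss, and 1 and 1 with GATA2, where 19.2% of all genes were called in either direction. Tspan15 fell from 10 ± 0.649 to 0.422 ± 0.184 CPM (-4.57, adjusted p = 8.77e-07) and was not called with GATA2 (0.61, adjusted p = 0.474), while Tspan14 rose (0.96, adjusted p = 9.63e-08) and fell with GATA2 (-0.58, adjusted p = 0.000151).

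Of 20 matrix and other ligands of these receptors, 3 were higher and 3 lower on loss, and 1 was higher and 8 lower with GATA2, 0 and 10 with R307W, and 0 and 6 with T354M. Over all genes 43.3% were called on loss, and 8.23%, 7.48% and 8.11% were lower with GATA2, R307W and T354M. Lama5, a laminin chain, fell from 23.9 ± 13.7 to 5.61 ± 1.48 CPM on loss (-2.09, adjusted p = 0.000828) and was the ligand that rose with GATA2 (2.28, adjusted p = 0.00158). Col3a1, a fibrillar collagen chain, rose (1.32, adjusted p = 0.00883, overlapping libraries) and fell with GATA2 (-1.55, adjusted p = 0.00856). Stromal markers, which overlap with this list through collagens, summed to 20.7 to 64.7 CPM over all libraries. Of 9 of them 1 was higher and 5 lower with GATA2, and their part in the ligand counts was not tested.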

How the data were processed

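The authors deposited, for each of the 20 libraries, RSEM gene tables with expected counts and TPM. Build mm10, STAR 2.5.2b and RSEM 1.3.0 are named in the submitters' processing notes, and libraries were made from total RNA with a NuGEN Ovation kit, per the labels' protocols. Use of strand in counting is not given in the sources used here. The deposited expected counts were rounded to whole numbers and the deposited TPM values served for comparing levels between genes and as an alternative.

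Identifiers were matched to GENCODE M21 symbols without version numbers (53274 of 53379). Counts without a symbol were at most 0.0148% of a library. In edgeR 4.0.16 (R 4.3.3), 15835 genes passed filterByExpr. A quasi-likelihood fit of the 20 libraries on 5 group means, with TMM factors, gave 8 contrasts (common dispersion 0.0468, 15 residual degrees of freedom). Alternatives used DESeq2 1.42.0 (size factors, Wald test), limma 3.58.1 on log2(TPM + 1) and log2(TPM + 0.1), no filter, only the 8 libraries compared, the replicate number as a block, and each library left out. Without replicate 4 of every group and a block over the 16 enhancer-null libraries were added after seeing the data. The steps were tested on simulated data.

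Same-numbered libraries had a correlation of their deviations over 0.1 for every number between the enhancer-null control and GATA2 (0.124 to 0.300). The same held among GATA2, R307W and T354M (0.159 to 0.667), and these were taken as paired. The main fit did not use this pairing. Its calls and adjusted p treat the libraries as unpaired, and the blocked fits were run as alternatives. Replicate 3 was less clear, as another number of T354M correlated with it as much or more. The values were 0.302 against 0.3 for GATA2 and 0.338 against 0.204 for R307W. Between the enhancer-null control and the R307W or T354M group the lowest value was 0.019 or 0.062, with the other 3 numbers over 0.1, and no pairing with the wild-type control had every number over 0.1, so these were not taken as paired. No 2 libraries of a group agreed within sampling noise (chi-square per degree of freedom 18.1 to 114).

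The 32 genes and all lists were chosen with earlier results of these data known. Values in every library were given for genes called on loss of the enhancer or with GATA2 with a log2 difference of at least 1 and no overlap, and for genes called in a variant against GATA2. From each wider list the called genes with the highest and lowest difference on loss were named, except for 1 that is not reported here.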

Additional observations from a re-analysis of the deposited data

Results flagged for a closer look

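Single libraries stood apart from the other 3 of their group for 6 of the 32 genes. In the enhancer-null control these were replicate 1 for Itga9 (2.82 CPM, the others 1.8 to 1.95) and Icam1 (46.7 CPM, the others 41 to 42), and replicate 2 for Cd47 (183 CPM, the others 153 to 157). Replicate 4 stood apart for Cd9 in the R307W group (57.1 CPM, the others 35 to 38.1), and for Cd63 (189 CPM, the others 83.1 to 97.2) and Cd37 (57.1 CPM, the others 34.5 to 37.4) in the T354M group. Each of the 32 genes was checked in each of the 5 groups of 4 libraries. Chance alone gives such a library in about 1 in 20 of these checks, a rate that the 6 found do not exceed.

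The 3 direct comparisons between vectors called 8 different genes of the 32. R307W against GATA2 called 3 of the 32 (1.73% of all genes), T354M against GATA2 7 (10%) and R307W against T354M 3 (3.49%). The share of all genes called in any of the 3 was not computed. R307W against GATA2 gave -2.92 for Itga2, -1.16 for Itgb3 and 0.56 for Itga4 on the log2 scale. T354M against GATA2 gave -3.38 for Itga2, -2.34 for Icam4, -1.63 for Itgb7, -1.45 for Itga9, -1.02 for Itgb3, -0.86 for Cd9 and -0.36 for Itgb1. R307W against T354M gave 1.88 for Icam4, 1.3 for Itgb7 and 0.72 for Itga4. Only Itga2 (R307W against GATA2), Itga2, Icam4 and Itgb7 (T354M against GATA2) and Itga4 (R307W against T354M) stayed called under each alternative.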

How the results depend on the processing

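Over 4288 recomputed differences of single genes, 3974 stayed on their side of the threshold, 122 gained a call, 192 lost it, and no called difference changed sign, while some uncalled ones did. Leaving out each library in turn gave these ranges of genes called among the 32 and among all genes: 18 to 20 and 6256 to 6916 on loss of the enhancer, 7 to 19 and 1574 to 3393 with GATA2, 7 to 14 and 1276 to 2976 with R307W, 7 to 12 and 1401 to 3074 with T354M, 1 to 3 and 126 to 376 for R307W against GATA2, 4 to 7 and 979 to 1679 for T354M against GATA2, 2 to 4 and 282 to 573 for R307W against T354M, and 17 to 18 and 4278 to 5077 for GATA2-rescued against wild-type cells. The lowest counts of all genes with a vector came without replicate 4 of that vector's group. Without replicate 4 of every group the counts of all genes were 1996 with GATA2, 1509 with R307W (8 of the 32), 1681 with T354M, 162 for R307W against GATA2, 1013 for T354M against GATA2 and 316 between the variants.

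With the replicate number as a block over the 20 libraries, R307W against GATA2 gave 5 of the 32 and 441 of all genes and the variants differed for 888 genes. Over the 16 enhancer-null libraries the blocked counts of all genes were 5258 with GATA2 (24 of the 32), 5341 with R307W (21) and 4984 with T354M (20). They were 637 for R307W against GATA2 (7 of the 32), 2893 for T354M against GATA2 (11) and 1319 between the variants (5). With GATA2 this added Itgb2, Cd37, F11r, Itgam, Itgav and Cd9. Against GATA2 it added Itgb1, Itgb2, Pecam1 and Cd53 for R307W, and Selplg, Itgb2, Alcam and Cd53 for T354M. Between the variants it added Pecam1 and Selplg. Where the numbers were not taken as paired, the block over the 20 libraries raised the counts of all genes too. On loss of the enhancer it called 20 of the 32 and 7622 of all genes (from 6859). With R307W it called 18 of the 32 (adding Itgb7, Cd44 and F11r) and 4097 of all genes (from 2773). It called 15 of the 32 with T354M (adding Itgae, Itgb7, Selplg, Cd44 and F11r) and 19 for GATA2-rescued against wild-type cells. In the comparisons whose numbers were taken as paired, the block over the 20 libraries changed no call among the 32 other than those given with their results.

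With only the 8 libraries compared, 117 genes were called for R307W against GATA2 and 250 (1 of the 32) between the variants. DESeq2 called 430 for R307W against GATA2. On log2(TPM + 1) values 1831 genes were called with T354M and 360 between the variants, and on log2(TPM + 0.1) values 1760 with T354M and 179 for R307W against GATA2. On the latter scale the higher and lower calls of all genes were 1257 and 609 with R307W, from 1589 and 1184, and 2401 and 1661 for GATA2-rescued against wild-type cells, from 2335 and 2534. The largest shift of the median of all genes by a scaling was 0.10. Except where fewer libraries were fitted, the cause was not tested. Depth limits Itgae, Icam4, Esam and Jaml most, with 39, 46, 95 and 97 expected counts in their lowest group.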
